A study of Mus musculus with 24 samples.

Results

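The 10 genes described here encode the subunits of the transcription factor NF-κB and the IκB proteins that bind them, in mouse B cells lacking PU.1, SpiB or both. They were taken by symbol from the raw count tables, which hold 27179 entries, and all 10 were found: the subunits Nfkb1, Nfkb2, Rel, Rela and Relb, the cytoplasmic inhibitors Nfkbia and Nfkbie, and the nuclear IκB proteins Nfkbid, Bcl3 and Nfkbiz. PU.1 (Spi1) and SpiB (Spib) are related Ets transcription factors that bind similar DNA sequences. RNA-seq was performed on lymph node B cells of C57BL/6 mice, with 24 libraries in 12 groups of 2. Each of 4 genotypes was sampled at 3 stages: naive, cultured for 48 h with CD40L + IL-4, and cultured for 48 h with LPS + IL-4. Control cells were Cd23T/+, carrying the Cd23-Cre transgene alone. PU.1 cKO cells were Spi1fl/fl Cd23T/+. SpiB KO cells were Spi1fl/fl Cd23+/+ Spib-/-, so they carried floxed Spi1 without Cre and were null for Spib in every cell. PU.1 SpiB DKO cells were Spi1fl/fl Cd23T/+ Spib-/-. The Cre transgene is driven by Cd23 regulatory sequence, which is active from the transitional B cell stage, so Spi1 was intact earlier in development. The floxed genotypes therefore differ from control in the Spi1 allele as well as in what was deleted.

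NF-κB subunits act as homodimers and heterodimers. Rela, Rel and Relb carry a transactivation domain, whereas Nfkb1 and Nfkb2 encode precursors that are processed to the DNA-binding forms p50 and p52. In resting cells the dimers are held in the cytoplasm by IκBα (Nfkbia), IκBε (Nfkbie) and the unprocessed precursors. CD40 and Toll-like receptor ligands such as LPS lead to IκB breakdown by the classical pathway, and CD40 also drives processing of the Nfkb2 product with Relb as its partner in the non-canonical pathway. The nuclear proteins IκBNS (Nfkbid), Bcl-3 (Bcl3) and IκBζ (Nfkbiz) bind mainly p50 or p52 dimers and can raise or lower transcription of their targets. In B cells, c-Rel (Rel) is known for its part in proliferation and survival after activation. Many of these genes are themselves NF-κB targets, which forms feedback loops.

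The upstream sequences of 3 members are shown because they carry the letters of a κB site or of an Ets site of the PU.1 and SpiB type, and because these genes had lower counts in mutant cells at several stages. The sequences are from RefSeq on build GRCm38.p6, which held 11 promoters (250 bases before to 50 after a transcription start) for 7 of the 10 members. Nfkb1, Relb and Nfkbiz had none. Capitals mark matches to the κB consensus decamer or to GAGGAAGT, a sequence of the Ets type with a GGAA core, on either strand. Each line is written 5′ to 3′ in the direction of the gene. The Rel stretch, chr11:23771030-23771179 on the minus strand, covers bases -210 to -61 from the start. The Nfkb2 stretch, chr19:46304677-46304736 on the plus strand, covers -60 to -1 of 1 of its 3 starts. The Nfkbid stretch, chr7:30423145-30423214 on the plus strand, covers -130 to -61 of 1 of its 3 starts.
Rel: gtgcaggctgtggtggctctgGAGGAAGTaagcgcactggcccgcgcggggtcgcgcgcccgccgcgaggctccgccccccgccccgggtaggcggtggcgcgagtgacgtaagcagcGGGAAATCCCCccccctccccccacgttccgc
Nfkb2: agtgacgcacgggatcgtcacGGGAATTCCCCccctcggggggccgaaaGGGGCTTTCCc
Nfkbid: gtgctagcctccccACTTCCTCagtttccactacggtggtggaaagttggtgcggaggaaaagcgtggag
In the Rel stretch GAGGAAGT lies at -189 to -182, and the run of κB letters, made of overlapping matches on both strands, lies at -92 to -82. In the Nfkbid stretch the Ets letters are on the opposite strand, at -116 to -109. The κB consensus was found in 8 of the 11 member promoters, against 8.46% of the 32851 promoters in the table. The 11 promoters are of 7 genes and are not independent: of the 3 for Nfkb2, 2 overlap and share 1 κB match. GAGGAAGT was found in 2 of 11 (those of Rel and Nfkbid), against 3.2% of all promoters. The composite letters GGAA, 2 bases of any kind and GAAA, at which PU.1 or SpiB can bind with IRF4 or IRF8, were found in 0 of 11, against 2.72%. These are matches of letters in a short window, not binding sites.

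On the same build, the subunit genes lie at chr3:135584655-135691969 (Nfkb1), chr19:46300994-46312400 (Nfkb2), chr11:23736847-23770969 (Rel), chr19:5637442-5648134 (Rela) and chr7:19606217-19629438 (Relb). The inhibitor genes lie at chr12:55489409-55492647 (Nfkbia), chr17:45555700-45563169 (Nfkbie), chr7:30421731-30428749 (Nfkbid), chr7:19808462-19822824 (Bcl3) and chr16:55811375-55838954 (Nfkbiz). Relb, Bcl3 and Nfkbid share chromosome 7 with Spib, at 24.9, 24.7 and 14.1 Mb from it. The library kit does not mark strand, so reads of Nfkb2 could not be told apart from those of the overlapping 4833438C02Rik and Psd, those of Nfkb1 from Gm46827, or those of Bcl3 from Gm16174.

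Total counts per library ranged from 14231188 to 18194629 in naive cells, from 9598674 to 61640683 in CD40L + IL-4 cultures and from 22757630 to 73658850 in LPS + IL-4 cultures. The highest CD40L + IL-4 total was PU.1 cKO replicate 2, and the other 7 of that stage were at most 11434235. Spib was lower than control in both Spib-/- genotypes at every stage, with log2 fold changes between -3.83 and -5.50. Spi1 was lower in PU.1 cKO libraries at every stage (-1.54 naive, -1.24 with CD40L + IL-4 and -0.63 with LPS + IL-4). In PU.1 SpiB DKO libraries Spi1 was lower in naive cells (-0.63) and CD40L + IL-4 cultures (-1.73). With LPS + IL-4 its counts in the libraries labelled PU.1 SpiB DKO were 58.8 and 54.8 CPM against 69.1 and 60.0 in control, a log2 fold change of -0.11 with an adjusted p of 0.448 (edgeR). Because the counts pool all exons and only a floxed exon is deleted, they are an incomplete check of the deletion. By the study's read coverage, the floxed exon was lost in both cultures but partly kept in naive PU.1 SpiB DKO cells, which limits that group as a model of the double loss. The study's gate for these libraries took CD3-, B220+ and CD138- cells. The summed level of 6 B cell markers in naive libraries was 10900 to 11100 CPM in control, 10900 to 11000 in PU.1 cKO, 9530 to 9780 in SpiB KO and 8190 to 8840 in PU.1 SpiB DKO. With CD40L + IL-4 it was 5500 to 7110 CPM in control and 3660 to 4690 in PU.1 SpiB DKO, and over all LPS + IL-4 libraries it was 2790 to 4140.

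Levels are given as normalised read counts (CPM), the counts of a gene relative to the effective total of its library, scaled over all 24 libraries. A member was called when edgeR's quasi-likelihood test gave a Benjamini-Hochberg adjusted p below 0.15 over all genes tested and the fold change exceeded 1.5, the thresholds of the study's methods. Errors of log2 fold changes are standard errors (SE). With 2 libraries against 2, an exact permutation test of a single gene cannot go below p = 0.333, so calls rest on the spread shared across genes.

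In control B cells the relative levels of the members changed with stage. Per kilobase, using the deposited log2 RPKM, Nfkbia stood first in naive cells at 7.40 ± 0.22 (SD, n = 2). Nfkb2 at 6.64 and Rela at 6.63 came next and overlapped each other. Nfkb1 (6.27) overlapped Nfkbie (6.06), and Nfkbie overlapped Relb (6.02). These were followed by Bcl3 (5.89), Rel (4.86), Nfkbid (4.60) and Nfkbiz (1.19), none of which overlapped its neighbours. With CD40L + IL-4, Nfkb1 stood first at 7.59. Nfkb2 (5.86), Bcl3 (5.85), Rela (5.79) and Nfkbia (5.70) followed, and neighbours among these 4 overlapped. With LPS + IL-4, Nfkb1 was again first at 8.15, ahead of Nfkbia (7.06) and Nfkb2 (6.46), with no overlap among these 3. Nfkbid and Nfkbiz were the lowest of the 10 at every stage.

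**Figure D1:**
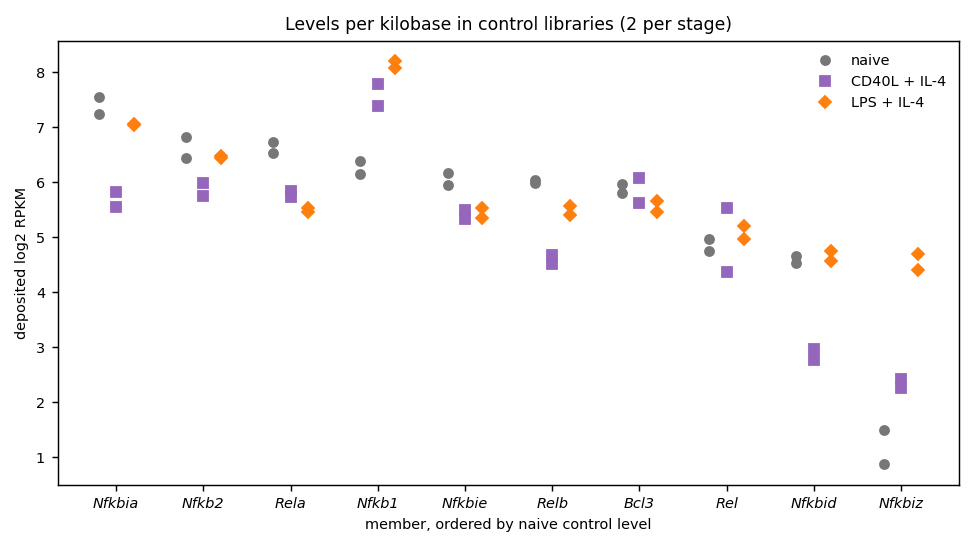
Deposited log2 RPKM of the 10 members in the control libraries, with 2 points per stage (circles, naive; squares, CD40L + IL-4; diamonds, LPS + IL-4). Nfkb1 stands behind Nfkbia, Nfkb2 and Rela in naive cells and first in both cultures, and Nfkbiz rises from a mean of 1.19 to 4.55 with LPS + IL-4.

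Culture of control cells with CD40L + IL-4 raised 2 members and lowered 6 relative to naive cells, against 25.4% of all genes tested called higher and 23.4% called lower. Nfkb1 was at 316 and 347 CPM in naive control libraries and at 874 and 672 CPM after CD40L + IL-4, a log2 fold change of 1.22 (SE 0.15, edgeR adjusted p = 1.4e-06). Nfkbiz rose by 1.26 (SE 0.37). The member with the greatest fall was Nfkbia, from 255 and 301 CPM to 78.8 and 90.4 CPM, with a log2 fold change of -1.72 (SE 0.15, edgeR adjusted p = 1.55e-08). All 4 of these Nfkbia values were separate between the stages. Nfkbid fell by 1.65 (SE 0.25), Relb by 1.40 (SE 0.14), Rela by 0.89 (SE 0.10), Nfkb2 by 0.84 (SE 0.18) and Nfkbie by 0.65 (SE 0.15) on the log2 scale. The Nfkbie call was lost without naive control replicate 2 (-0.55). Rel (0.26, SE 0.24) and Bcl3 (-0.01, SE 0.12) were not called. The median log2 change of the 10 members was -0.74, against 0.00 over all genes tested.

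With LPS + IL-4, 2 members rose and 3 fell relative to naive control cells, against 32.6% of all genes called higher and 31.3% called lower. Nfkbiz, at 6.55 and 10.4 CPM in naive control libraries, reached 95.6 and 82.4 CPM, a log2 fold change of 3.39 (SE 0.37, edgeR adjusted p = 1.03e-07). Nfkb1 reached 1143 and 1174 CPM (1.80, SE 0.15). Rela fell from 268 and 291 CPM to 121 and 122 CPM (-1.20, SE 0.10), and Nfkbie (-0.68, SE 0.15) and Relb (-0.60, SE 0.13) were also called lower. Both of the last calls were lost without naive control replicate 2, with values of -0.58 for both, and Relb also without LPS + IL-4 control replicate 2 (-0.54).

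Between the 2 cultures, 5 members were higher with LPS + IL-4 than with CD40L + IL-4 and none was lower, against 20.3% of all genes called higher. These were Nfkbiz (2.13, SE 0.34), Nfkbid (1.68, SE 0.25), Nfkbia (1.32, SE 0.15), Relb (0.80, SE 0.13) and Nfkb2 (0.61, SE 0.18). The Nfkb2 call was lost without CD40L + IL-4 control replicate 2 (0.47) or LPS + IL-4 control replicate 2 (0.52). The stages differ in depth, and the CD40L + IL-4 counts were deposited in a table apart from the other 2 stages, so stage and library set cannot be told apart. A list of 10 immediate-early and heat shock genes that respond to cell handling also fell: 8 were called lower with CD40L + IL-4 than in naive control cells (median log2 change -2.23) and 8 with LPS + IL-4 (median -3.41). Its summed level in control was 651 to 1220 CPM in naive cells, 248 to 275 with CD40L + IL-4 and 369 to 408 with LPS + IL-4. Its part in the changes of the members was not tested.

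**Figure D2:**
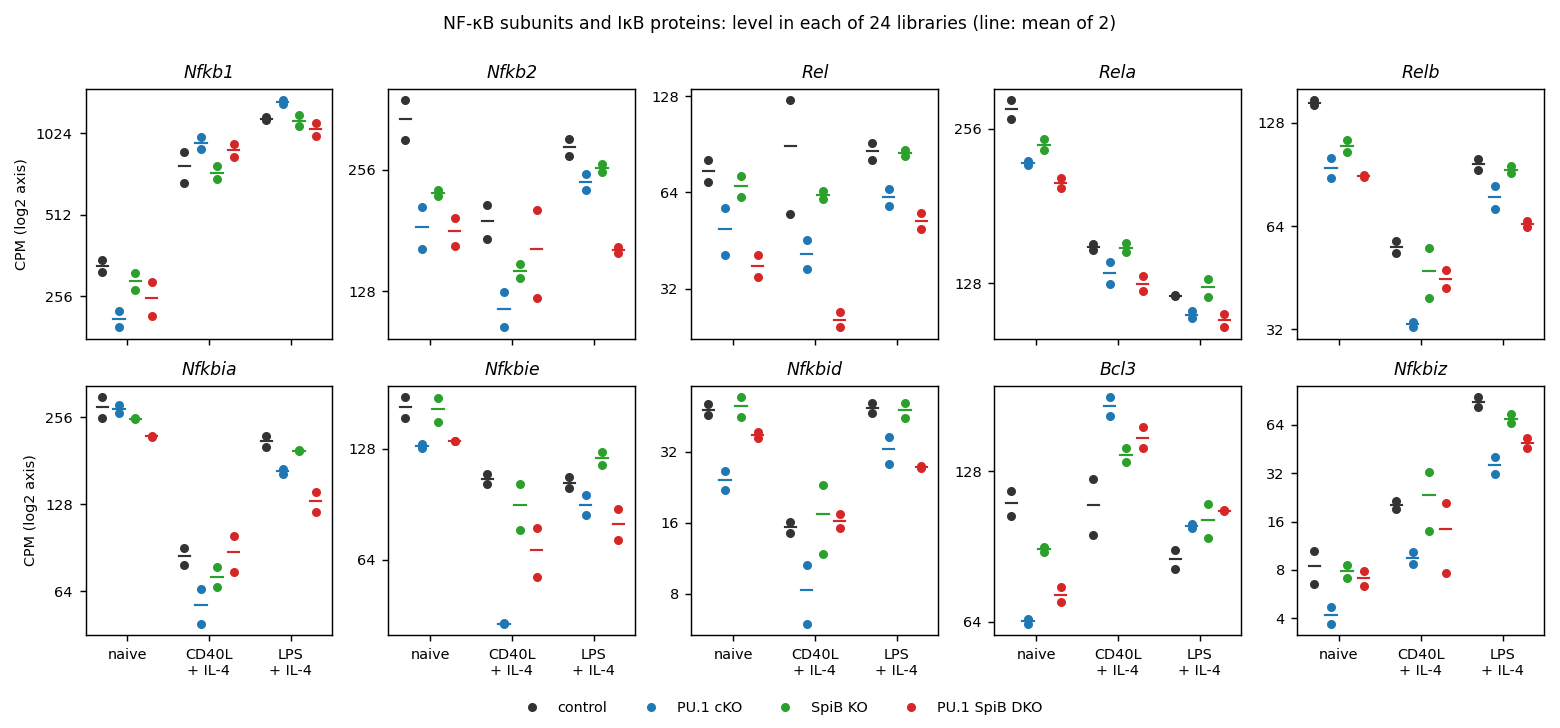
CPM of each member in the 24 libraries (log2 axis), grouped by stage and coloured by genotype, with a line at the mean of each pair. The mean of Rel is lowest in PU.1 SpiB DKO at each stage, and Bcl3 in mutant libraries lies below control in naive cells and above control in both cultures.

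In naive B cells, loss of PU.1 was accompanied by lower counts of 7 of the 10 members, and none was called higher. This compares with 6.55% of all genes tested that were called lower in PU.1 cKO against control. Among the subunits, Nfkb2 fell from 304 and 380 CPM in control to 207 and 162 CPM, a log2 fold change of -0.90 (SE 0.16, edgeR adjusted p = 0.0104). Nfkb1 (-0.66, SE 0.15), Relb (-0.64, SE 0.11) and Rel (-0.61, SE 0.17) were also lower. All 3 nuclear IκB genes fell. Bcl3 was at 104 and 117 CPM in control and at 63.4 and 64.8 CPM in PU.1 cKO cells (-0.79, SE 0.12), with no overlap. Nfkbid was at 45.8 and 50.9 CPM in control and at 26.5 and 22.1 CPM in PU.1 cKO (-1.0, SE 0.16, edgeR adjusted p = 0.00585). Nfkbiz, at 6.55 and 10.4 CPM in control, was at 3.68 and 4.67 CPM in PU.1 cKO (-1.03, SE 0.29). Fewer cells of a type and less RNA per cell cannot be told apart in these bulk libraries. The remaining members were not called: Rela (-0.35, SE 0.10) and Nfkbie (-0.36, SE 0.12) had adjusted p values of 0.0751 and 0.112 but missed the fold threshold, and Nfkbia was at -0.03 (SE 0.12).

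SpiB loss alone lowered 1 of the 10 members in naive cells, against 3.62% of all genes. Nfkb2 was at 220 and 228 CPM in SpiB KO libraries, below both control libraries, with a log2 fold change of -0.61 (SE 0.16, edgeR adjusted p = 0.0555). With voom and quantile normalization, the method of the study, the value was -0.57 and was not called. The call was also lost without SpiB KO replicate 1 (-0.59) or 2 (-0.64), or without control replicate 2 (-0.41). Relb (-0.42, SE 0.11, edgeR adjusted p = 0.0594) missed only the fold threshold.

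In naive PU.1 SpiB DKO cells 4 members were lower than in control, against 8.64% of all genes. Rel was at 80.7 and 69.1 CPM in control and at 34.8 and 40.9 CPM in PU.1 SpiB DKO (-0.97, SE 0.17, edgeR adjusted p = 0.00434). Nfkb2 (-0.92, SE 0.16), Relb (-0.70, SE 0.11) and Bcl3 (-0.60, SE 0.11) were the others. Rela (-0.47, SE 0.10, edgeR adjusted p = 0.0125) passed the p threshold but not the fold threshold. So did Nfkb1 (-0.39, SE 0.15), Nfkbid (-0.34, SE 0.15), Nfkbia (-0.33, SE 0.12) and Nfkbie (-0.29, SE 0.12). Nfkbiz (-0.25, SE 0.28) passed neither. Compared directly with PU.1 cKO, 2 members were higher in PU.1 SpiB DKO, against 9.91% of all genes: Nfkbid (0.66, SE 0.16) and Nfkbiz (0.78, SE 0.29). Spi1 itself was higher in PU.1 SpiB DKO than in PU.1 cKO (0.92, SE 0.11, edgeR adjusted p = 0.000571), so the naive genotypes were not matched for the loss of Spi1 and the part of this in the results was not tested. The Nfkbiz call was lost on leaving out any 1 of the 4 libraries compared, and the Nfkbid call was lost without PU.1 cKO replicate 2 (0.53). Compared with SpiB KO, Rel was lower (-0.82, SE 0.17), against 1.34% of all genes, a call lost without PU.1 SpiB DKO replicate 1 (-0.71) or without SpiB KO replicate 1 (-0.92) or 2 (-0.71). No member had an interaction of the 2 losses in edgeR, with 5 at an unadjusted p under 0.05 and 0 called by DESeq2 or voom, against 0.936% of all genes. With replicate number as a block, however, Bcl3 (0.50), Nfkb1 (0.46), Nfkb2 (0.58) and Nfkbid (0.61) were called. Spi1 had an interaction of 0.93 (SE 0.16, edgeR adjusted p = 0.0486), so the comparison of the single and double losses is not of equal losses of Spi1.

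Other cell markers and handling-response genes moved with genotype in naive libraries. The summed level of 6 plasmacytoid dendritic cell markers was 1060 to 1340 CPM in SpiB KO libraries, and 1410 to 1510 CPM in those of PU.1 SpiB DKO, against 199 to 321 in control and 233 to 253 in PU.1 cKO. The 6 myeloid markers summed to 54.5 to 76.9 CPM in the Spib-/- genotypes and to at most 27.2 elsewhere. The 6 T cell markers summed to 280 to 402 CPM against at most 39.7, mainly through Cd8a and Cd4, while Cd3e was at most 0.675 CPM in these cells, sorted as CD3-. Of the 5 T cell markers tested, 3 were called higher and 0 lower than control in each of the Spib-/- genotypes. The handling-response list summed to 651 to 1220 CPM in control and to 351 to 597 CPM in the mutant libraries. The part of these differences in the results for the NF-κB genes was not tested. Without naive control replicate 2, the calls of Nfkb1 (-0.56) and Nfkbiz (-0.63) in PU.1 cKO and of Bcl3 (-0.48) in PU.1 SpiB DKO were lost. Among the PU.1 cKO calls, those of Nfkb1 (-0.56), Rel (-0.39) and Nfkbiz (-0.87) were lost without PU.1 cKO replicate 1, those of Relb (-0.56) and Nfkbiz (-1.23) without PU.1 cKO replicate 2, and that of Rel (-0.53) without control replicate 1. The Bcl3 call in PU.1 SpiB DKO was also lost without PU.1 SpiB DKO replicate 2 (-0.56). The calls of Nfkb2, Nfkbid and Bcl3 in PU.1 cKO, and of Rel, Nfkb2 and Relb in PU.1 SpiB DKO, held without any 1 of the 8 libraries.

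**Figure D3:**
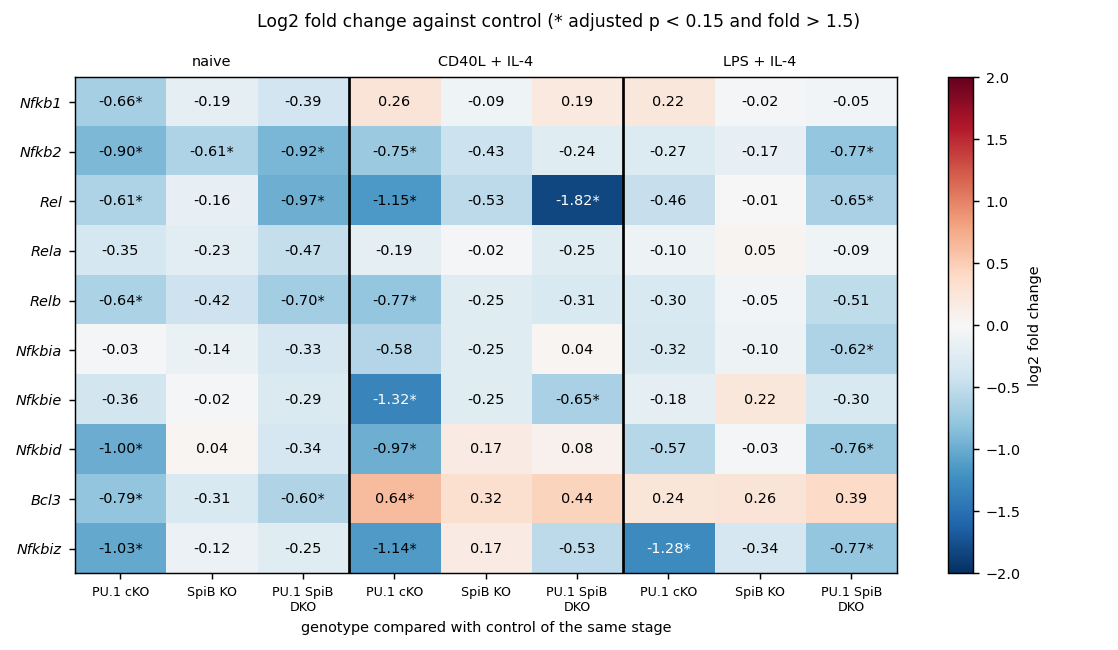
Log2 fold change of each member in each genotype against control of the same stage (blue lower, red higher), with asterisks on called values. Of the 30 member and genotype pairs per stage, 12 are called in naive cells, 9 with CD40L + IL-4 and 6 with LPS + IL-4. These counts pool genotypes that share control libraries, and they were not tested between stages. The share of all genes called also differs by genotype: with CD40L + IL-4 it was 0.134% in SpiB KO, against 9.13% higher and 9.2% lower in PU.1 SpiB DKO.

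With CD40L + IL-4, PU.1 cKO cells had 6 members lower and 1 higher than control, against 7.21% of all genes called lower and 6.27% called higher. The most strongly lowered was Nfkbie, which encodes IκBε: it was at 103 and 109 CPM in control and at 42.9 and 43.1 CPM in PU.1 cKO, a log2 fold change of -1.32 (SE 0.19, edgeR adjusted p = 0.00171). Both PU.1 cKO libraries lay below all other libraries of the stage. Relb was at 53.4 and 57.8 CPM in control and at 32.5 and 33.7 CPM in PU.1 cKO (-0.77, SE 0.18, edgeR adjusted p = 0.023). The Nfkbie and Relb calls held without any 1 of the 8 libraries. Rel (-1.15, SE 0.30), Nfkbiz (-1.14, SE 0.44), Nfkbid (-0.97, SE 0.34) and Nfkb2 (-0.75, SE 0.22) were also called lower. Each of these 4 calls was lost without PU.1 cKO replicate 2 or without control replicate 1, and some without further libraries. Rel depended most on 1 library: the control libraries stood at 124 and 54.8 CPM, and without the first the value was -0.42 with an adjusted p of 0.266. Bcl3 was the member that rose, from 95.4 and 123 CPM to 165 and 180 CPM (0.64, SE 0.16, edgeR adjusted p = 0.0349), with both PU.1 cKO libraries above both control libraries. Its call was lost without PU.1 cKO replicate 2 (0.59) or control replicate 1 (0.48). Nfkbia (-0.58, SE 0.19, edgeR adjusted p = 0.0968) missed only the fold threshold, and was called with replicate number as a block (-0.59).

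No member was called in SpiB KO against control with CD40L + IL-4, with 0 at an unadjusted p under 0.05 and 0 called by DESeq2 or voom. Of all genes, 0.134% were called in edgeR. The log2 fold changes ranged from -0.53 (SE 0.30) for Rel to 0.32 (SE 0.16) for Bcl3.

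In PU.1 SpiB DKO cells with CD40L + IL-4, 2 members were lower, against 9.2% of all genes. Rel was at 27.1 and 24.3 CPM, below every library of the other genotypes, with a log2 fold change of -1.82 against control (SE 0.31, edgeR adjusted p = 0.00328). Without control replicate 1 this value was -1.10, and the call held without any 1 of the 8 libraries. Nfkbie was at 57.6 and 78.3 CPM (-0.65, SE 0.19), a call that was lost without PU.1 SpiB DKO replicate 1 (-0.45). Bcl3 was at 157 and 142 CPM, above both control libraries, but missed the fold threshold (0.44, SE 0.16, edgeR adjusted p = 0.102). Nfkb2 was at 123 and 203 CPM in the 2 PU.1 SpiB DKO libraries and Nfkbiz at 21 and 7.65 CPM, so their values of -0.24 (SE 0.22) and -0.53 (SE 0.44) have wide errors. Nfkbie was higher in PU.1 SpiB DKO than in PU.1 cKO (0.67, SE 0.19), against 2.23% of all genes, and this call was lost without any 1 of 5 libraries. Rel was lower than in SpiB KO (-1.29, SE 0.31), against 7.11% of all genes. No interaction was called in edgeR or voom, with 5 members at an unadjusted p under 0.05 and 1 called by DESeq2, against 1.17% of all genes. With replicate number as a block, however, Nfkbia (0.86) and Nfkbie (0.92) were called. In these cells, sorted as CD138- and CD3-, the 5 plasma cell markers summed to 1180 to 1390 CPM in control, 1810 to 2040 in PU.1 cKO libraries and 2280 to 2530 in those of PU.1 SpiB DKO. The handling-response list summed to 248 to 275 CPM in control, 415 to 431 in PU.1 cKO and 433 to 495 in PU.1 SpiB DKO. The myeloid markers summed to 42.9 to 58.3 CPM in control, 8.89 to 10.2 in PU.1 cKO and 8.68 to 11.5 in PU.1 SpiB DKO, and the T cell markers to 2.77 to 6.61, 30.6 to 44.4 and 21.8 to 45.6 CPM in the same order. The part of these differences in the NF-κB results was not tested. PU.1 SpiB DKO replicate 1 held 6.64% of its counts in the ribosomal RNA gene Rn45s, and leaving that gene out changed no call.

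With LPS + IL-4, PU.1 cKO cells had 1 member lower than control, against 3.85% of all genes. Nfkbiz, which encodes IκBζ, was at 95.6 and 82.4 CPM in control and at 40.7 and 31.7 CPM in PU.1 cKO, a log2 fold change of -1.28 (SE 0.14, edgeR adjusted p = 0.000441). The call held without any 1 of the 8 libraries. Nfkbid (-0.57, SE 0.14), Rel (-0.46, SE 0.11), Nfkbia (-0.32, SE 0.09), Relb (-0.30, SE 0.10) and Nfkb2 (-0.27, SE 0.08) had adjusted p values between 0.0207 and 0.0833 and missed the fold threshold. No member was called in SpiB KO in edgeR, DESeq2 or voom, with 2 at an unadjusted p under 0.05, against 3.19% of all genes.

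In the libraries labelled PU.1 SpiB DKO with LPS + IL-4, 5 members were lower than in control, against 6.52% of all genes. Nfkb2 fell from 276 and 306 CPM to 165 and 159 CPM, a log2 fold change of -0.77 (SE 0.08, edgeR adjusted p = 0.000143). Rel fell from 91.4 and 80.7 CPM to 55.1 and 49.1 CPM (-0.65, SE 0.11), and Nfkbid from 51.6 and 46.9 CPM to 27.8 and 27.5 CPM (-0.76, SE 0.14). Nfkbiz, at 53.0 and 46.3 CPM, lay between control and PU.1 cKO (-0.77, SE 0.14). Nfkbia was at 203 and 220 CPM in control and at 121 and 142 CPM in these libraries (-0.62, SE 0.09). This was its only call against control, but in PU.1 cKO with CD40L + IL-4 it missed only the fold threshold (-0.58, SE 0.19). For each of these 5 genes the control and PU.1 SpiB DKO libraries did not overlap. The same held for uncalled members such as Nfkb1 (-0.05, SE 0.10) and Rela (-0.09, SE 0.08), so this separation adds nothing to the calls. The Rel and Nfkbia calls each failed the fold threshold without 1 of 2 libraries, at -0.55 to -0.58 for Rel (control replicate 1 or PU.1 SpiB DKO replicate 2) and -0.51 to -0.58 for Nfkbia (PU.1 SpiB DKO replicate 1 or control replicate 2). Relb (-0.51, SE 0.10, edgeR adjusted p = 0.00355), Bcl3 (0.39, SE 0.10, edgeR adjusted p = 0.0114) and Nfkbie (-0.30, SE 0.11, edgeR adjusted p = 0.0628) missed only the fold threshold. In these cells, also sorted as CD138- and CD3-, the plasma cell markers summed to 634 to 704 CPM in control, 1140 to 1260 in PU.1 cKO libraries and 1500 to 1520 in those of PU.1 SpiB DKO. The T cell markers summed to 0.942 to 2.2 CPM in control, 3.67 to 5.04 in PU.1 cKO and 28.2 to 29.5 in PU.1 SpiB DKO, and the myeloid markers to 11.6 to 17.7, 3.54 to 5.77 and 5.78 to 6.87 CPM. The part of these differences in the NF-κB results was not tested.

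Between the mutants with LPS + IL-4, no member of PU.1 SpiB DKO was called relative to PU.1 cKO in edgeR, DESeq2 or voom, with 4 at an unadjusted p under 0.05, against 12.6% of all genes. These 4 also passed the adjusted p threshold and missed only the fold threshold. They were Nfkb2 (-0.51, SE 0.08, edgeR adjusted p = 0.00474), Nfkbiz (0.51, SE 0.14), Nfkbia (-0.29, SE 0.09) and Nfkb1 (-0.28, SE 0.10). Relative to SpiB KO, Nfkb2 (-0.61, SE 0.08), Rel (-0.64, SE 0.11) and Nfkbid (-0.73, SE 0.14) were lower, against 4.12% of all genes, and the Rel call was lost without PU.1 SpiB DKO replicate 2 (-0.58). Nfkbiz had the only interaction of the 2 losses (0.84, SE 0.20, edgeR adjusted p = 0.135), against 1.48% of all genes, meaning that its level in PU.1 SpiB DKO was higher than the sum of the single effects on the log2 scale would give. This call was lost without any 1 of 6 libraries. With replicate number as a block, which paired the LPS + IL-4 libraries, Nfkb2 was called as well (-0.34, adjusted p = 0.0923), giving 2 calls in place of 1. Spi1 counts, which pool all exons, were higher in PU.1 SpiB DKO than in PU.1 cKO (0.52, SE 0.10, edgeR adjusted p = 0.00944) but missed the fold threshold. The part of this difference in the interactions and in the comparisons between mutants was not tested.

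The effects of PU.1 cKO and of PU.1 SpiB DKO were then compared between stages by contrasts fitted over all 24 libraries. The SpiB KO effect was not compared between stages. Bcl3 changed direction: the PU.1 cKO effect was -0.79 in naive cells, 0.64 with CD40L + IL-4 and 0.24 with LPS + IL-4. The last of these values was not called against control (edgeR adjusted p = 0.162). The difference from naive was 1.44 (SE 0.17, edgeR adjusted p = 0.00012) with CD40L + IL-4 and 1.0 (SE 0.17) with LPS + IL-4. The PU.1 SpiB DKO effect on Bcl3 differed likewise, by 1.06 (SE 0.17) and 0.93 (SE 0.17). All 4 of these calls held without any 1 of the 24 libraries. The PU.1 SpiB DKO values of Bcl3 in the cultures themselves (0.44 and 0.39) were not called against control. In SpiB KO the Bcl3 values had the same signs and none was called: -0.31 in naive cells, 0.32 with CD40L + IL-4 and 0.26 with LPS + IL-4. The 3 genotype effects at a stage share control libraries, so they are not independent of each other. Nfkb1 had a PU.1 cKO effect of -0.66 in naive cells, 0.26 with CD40L + IL-4 and 0.22 with LPS + IL-4, differences of 0.94 (SE 0.21) and 0.86 (SE 0.21). Nfkbie had a PU.1 cKO effect that was greater with CD40L + IL-4 than in naive cells (-0.95, SE 0.22) or than with LPS + IL-4 (a difference of 1.10, SE 0.21). In all, the PU.1 cKO effect differed in 3 members between CD40L + IL-4 and naive cells, 2 between LPS + IL-4 and naive cells and 1 between the cultures, against 8.98%, 6.34% and 3.09% of all genes.

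For the PU.1 SpiB DKO effect the counts were 3, 2 and 4 members, against 16.8%, 29.6% and 28.6% of all genes. Between the cultures, the fall of Rel was smaller with LPS + IL-4 by 1.08 (SE 0.35, edgeR adjusted p = 0.04), a call lost without CD40L + IL-4 control replicate 1 (0.37) or LPS + IL-4 control replicate 2 (adjusted p = 0.164). Nfkbia was lowered more with LPS + IL-4 than with CD40L + IL-4, with a difference of -0.74 (SE 0.21, edgeR adjusted p = 0.0237), which was not called without CD40L + IL-4 PU.1 SpiB DKO replicate 2 (-0.51). Nfkbid (-0.92, SE 0.35) and Nfkb2 (-0.62, SE 0.26) differed in the same direction, and each of these calls was lost without any 1 of several libraries.

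**Figure D4:**
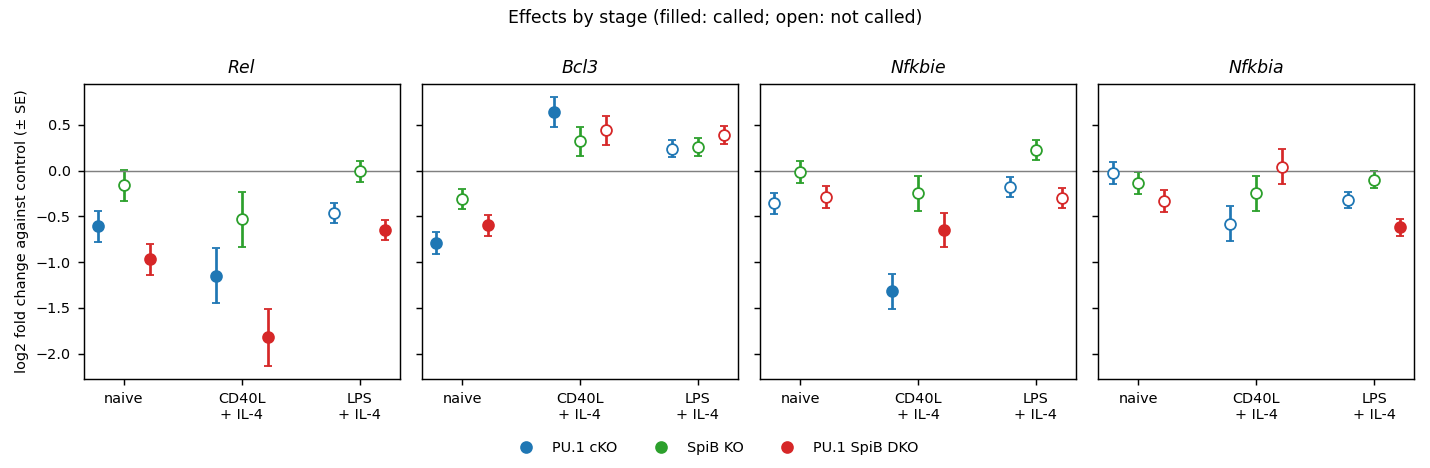
Log2 fold change against control, with standard error bars, of Rel, Bcl3, Nfkbie and Nfkbia at each stage, with filled points for called values. The Bcl3 values of PU.1 cKO (-0.79, 0.64 and 0.24) and of PU.1 SpiB DKO (-0.60, 0.44 and 0.39) lie below 0 in naive cells and above 0 in both cultures, and the Rel values of these genotypes lie below 0 at all stages.

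Across the 12 group means of log2 CPM, Relb and Nfkbia were the most alike pair of members (Pearson r = 0.963), followed by Nfkbid with Relb (0.922) and Nfkbie with Relb (0.901). Nfkb2 was closest to Relb (0.872), and Nfkb1 and Nfkbiz were closest to each other (0.835). Rela was closest to Nfkbie (0.698), Rel to Nfkb2 (0.649) and Bcl3 to Nfkb1 (0.552). The most opposed members were Nfkb1 and Rela (-0.923). Over all genes, the closest to Nfkb1 was Aars (0.997), to Rela Ap2b1 (0.993), to Nfkbiz Cyb5r3 (0.988) and to Relb Itpkc (0.984). These values describe 12 points that share stage, library set and depth.

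A further 45 genes of the pathway were counted in the same fits: kinases and kinase complex members, adaptors, feedback regulators, Nfkbib and 14 known NF-κB targets. In naive PU.1 SpiB DKO cells 3 were higher and 11 lower of 44 tested, against 12.6% and 8.64% of all genes, with a median log2 change of -0.36 against 0.00 over all genes. Map3k14, which encodes the NF-κB-inducing kinase of the non-canonical pathway, fell from 47.1 and 72.9 CPM in the control libraries to 19.6 and 30.6 CPM (-1.25, SE 0.28), and Ebi3, a cytokine subunit gene, fell by 1.13 (SE 0.20). Gadd45b, a stress response gene (1.27, SE 0.18), and Ccnd2, which encodes cyclin D2 (0.73, SE 0.15), were higher. With CD40L + IL-4, 3 were higher and 11 lower of 45, against 9.13% and 9.2% of all genes. Gadd45b (1.07, SE 0.22) and Myc (0.77, SE 0.22) were the most raised. The most lowered were Bcl2a1d (-2.97, SE 0.32) and Bcl2a1b (-2.28, SE 0.23), near-identical survival genes between which reads of this family may be split uncertainly. With LPS + IL-4, 2 were higher and 13 lower, against 13.7% and 6.52% of all genes, including 11 of the 14 targets, whose median was -1.10 against 0.01 over all genes. Bcl2a1b (-3.48, SE 0.12) and Bcl2a1d (-3.32, SE 0.16) led the fall, and Pdlim2 (0.71, SE 0.11), which encodes an adaptor that limits Rela, and Tab2 (0.59, SE 0.09), a TAK1-binding adaptor, were the genes that rose.

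In PU.1 cKO the same 45 genes had 1 higher and 13 lower in naive cells (44 tested), against 4.18% and 6.55% of all genes. With CD40L + IL-4 the counts were 1 and 12, against 6.27% and 7.21%, and with LPS + IL-4 they were 1 and 7, against 6.68% and 3.85%. In SpiB KO, 1 was higher and 3 were lower in naive cells, against 6.01% and 3.62% of all genes, 0 were called in edgeR or voom with CD40L + IL-4 (3 at an unadjusted p under 0.05, and 2 called by DESeq2), against 0.134%, and 3 were lower with LPS + IL-4, against 0.94%. In control cells, 9 rose and 6 fell with CD40L + IL-4 relative to naive, against 25.4% and 23.4% of all genes. With LPS + IL-4, 17 rose and 11 fell, against 32.6% and 31.3%. Apart from the rise with LPS + IL-4, these shares of the 45 genes were below those of all genes. Of the 14 targets, 12 were higher and 2 lower with LPS + IL-4 (median log2 change 1.89, against 0.01 over all genes). With CD40L + IL-4, 6 targets were higher and 2 lower (median 0.54, against 0.00). Bcl2l1, which encodes Bcl-xL, rose with CD40L + IL-4 (1.94, SE 0.19), and Ccnd2 rose with LPS + IL-4 (4.27, SE 0.20). Ier3, an immediate-early gene, had no count in the naive control libraries, and against a floor of 3 counts per library it was at least 2.75-fold higher with CD40L + IL-4 and at least 6.21-fold higher with LPS + IL-4. That floor was 0.226 CPM, so Ier3 was also low in both cultures, and the bounds depend on the floor chosen. Ltb, which encodes lymphotoxin β, fell in both cultures (-4.14, SE 0.31, and -5.60, SE 0.33). Lta (-1.60, SE 0.27) fell with CD40L + IL-4 and Pdlim2 (-1.61, SE 0.15) with LPS + IL-4.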

How the data were processed

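RNA-seq was performed by the authors on 2 biological replicates of each of 12 groups. Reads were aligned with Subread to GRCm38/mm10, and uniquely mapped reads over RefSeq exons were summarized with featureCounts. The deposited counts are raw and unnormalized. The authors also deposited log2 RPKM per library, normalized by them, with the LPS + IL-4 set filtered separately. The deposited log2 RPKM were used only for levels per length and for 1 alternative.

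All tests used the counts with edgeR 4.0.16 (quasi-likelihood, TMM) in R 4.3.3, on genes that reached 0.5 CPM in 2 or more libraries. The 8 libraries of a stage were fitted together (12500, 12721 and 12445 genes tested for naive, CD40L + IL-4 and LPS + IL-4), and comparisons between stages used all 24 (13684 genes). Calls required an adjusted p below 0.15 and a fold above 1.5, or the adjusted p alone for interactions and differences between stages. Entries without a symbol (517, 0.162% of counts) stayed in the library totals. The scripts were tested on simulated data. The 10 members and all lists were chosen with earlier results of these data known, so no p was adjusted over a list alone. The text names all 10 members, Spi1 and Spib, and, from the pathway lists, the 2 called genes with the greatest change in each direction in PU.1 SpiB DKO against control and in each culture of control against naive, and the genes and members closest in pattern. The other cell markers are given as sums. 3 listed genes were matched through an older symbol.

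Alternatives were DESeq2 1.42.0, RLE size factors, voom with quantile normalization (limma 3.58.1, the method of the study), no filter, a replicate block, leaving out each library, an adjusted p below 0.05, all 24 libraries in 1 fit or only the 6 control libraries, a mean log2 RPKM above 0, and Rn45s removed. Replicate numbers are taken from the labels. In the LPS + IL-4 set, libraries with the same number deviated together in all 6 pairs of genotypes (correlations of 0.299 to 0.405), so the numbers were taken to pair those libraries. The main fits, at this stage too, did not use the pairing, and the fit with the replicate block is given as an alternative. All 69 called values of single members kept their call with the block. One extraction text, naming only CD40L + IL-4, is attached to all samples, and the stage was taken from the sample names. Pooling of mice is not given in the sources used here.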

Additional observations from a re-analysis of the deposited data

Results flagged for a closer look

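The results listed here are those in which the effect of PU.1 cKO or PU.1 SpiB DKO on a member differed between 2 stages. The difference itself was tested (edgeR over all 24 libraries, adjusted p below 0.15), and the SpiB KO effect was left out of these tests. For PU.1 SpiB DKO against control, the effect with CD40L + IL-4 minus that in naive cells was 0.69 for Nfkb2, 0.59 for Nfkb1 and 1.06 for Bcl3 on the log2 scale. With LPS + IL-4 minus naive it was 0.31 for Rela and 0.93 for Bcl3. With LPS + IL-4 minus CD40L + IL-4 it was 1.08 for Rel, -0.74 for Nfkbia, -0.62 for Nfkb2 and -0.92 for Nfkbid. For PU.1 cKO against control, CD40L + IL-4 minus naive gave -0.95 for Nfkbie, 0.94 for Nfkb1 and 1.44 for Bcl3. LPS + IL-4 minus naive gave 0.86 for Nfkb1 and 1.0 for Bcl3, and LPS + IL-4 minus CD40L + IL-4 gave 1.10 for Nfkbie. The differences for Nfkb1, Nfkb2, Rela, Rel, Nfkbia and Nfkbid in PU.1 SpiB DKO, and that for Nfkb1 with LPS + IL-4 in PU.1 cKO, were each lost without at least 1 library. The others held without any 1 of the 24. The causes were not tested.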

How the results depend on the processing

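Across the alternatives, called values of single members kept their direction and call in 1515 comparisons and fell below the threshold in 138, with 0 reversed. Of these, 976 and 104 came from leaving out a library, in many cases one outside the groups compared. Settings that changed only a threshold could not reverse a direction. Of the 34 member values not called in PU.1 cKO or PU.1 SpiB DKO against control, 558 recomputed values stayed so, 9 passed the threshold and 11 changed sign. In the interactions, the comparisons between mutants and the differences between stages, values that were not called passed in 56 cases on leaving out a library or with the replicate block. The sign changes were Nfkb1 in LPS + IL-4 PU.1 SpiB DKO (0.024 with voom, and -0.15 to 0.02 on leaving out each library), Nfkbia in naive PU.1 cKO (0.00022 with voom, and -0.17 to 0.13, with 0.011 among them, on leaving out each library), and, over the libraries left out, Nfkb2 (-0.64 to 0.077), Nfkbia (-0.17 to 0.23, with -0.05 among them), Nfkbid (-0.021 to 0.19) and Nfkbiz (-1.42 to 0.044) in CD40L + IL-4 PU.1 SpiB DKO and Nfkbiz (-0.58 to 0.16) in naive PU.1 SpiB DKO.

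Calls between mutants in naive cells went from 3 to 1 at an adjusted p below 0.05. With CD40L + IL-4 they went from 2 to 1 at that threshold, 4 with DESeq2 or voom, 6 with no filter and 5 with all 24 libraries in 1 fit. Interactions went from 0 to 1 with no filter in naive cells, and with CD40L + IL-4 from 0 to 1 with DESeq2, 3 with no filter and 5 with all 24 libraries. The single interaction with LPS + IL-4 went to 0 with voom, an adjusted p below 0.05 or all 24 libraries. Members whose effect differed between stages went from 9 to 4 for PU.1 SpiB DKO at an adjusted p below 0.05 and from 6 to 10 for PU.1 cKO with no filter. The cause was not tested.

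Libraries with the same number deviated together less in naive cells (correlations 0.0525 to 0.2, 5 of 6 above 0.1) than with LPS + IL-4. With CD40L + IL-4 the correlations were -0.0545 to 0.204, with 3 of 6 above 0.1. Whether the numbers pair the libraries of these 2 stages was not settled. With the replicate block, naive interactions went from 0 to 4 (Bcl3, Nfkb1, Nfkb2 and Nfkbid), CD40L + IL-4 interactions from 0 to 2, and calls between CD40L + IL-4 mutants from 2 to 4. Pairing took LPS + IL-4 interactions from 1 to 2.

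Leaving out each library gave 8 to 12 calls against control in naive cells, 4 to 10 with CD40L + IL-4 and 5 to 7 with LPS + IL-4. Calls between mutants ranged over 1 to 3, 1 to 5 and 3 to 5, and interactions over 0 to 3, 0 to 2 and 0 to 1. In control cells the counts were 7 to 9 for CD40L + IL-4 against naive, 3 to 5 for LPS + IL-4 against naive and 4 to 7 between the cultures. Differences between stages numbered 5 to 10 for PU.1 SpiB DKO and 5 to 9 for PU.1 cKO. Where a group was left with 1 library, that library was assumed to vary like the others. Depth was lowest in 7 of the 8 CD40L + IL-4 libraries (at most 11434235 counts), and its effect on the members with few counts, Nfkbid and Nfkbiz, was not tested.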
